A study of Homo sapiens with 3 samples.

Results

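The hairpins of miR-143, miR-145, miR-199a, miR-199b and miR-214 were examined in small RNA libraries of MV4-11, a human acute myeloid leukemia line labelled FLT3-ITD+. The members were set by name: 6 hairpins (hsa-mir-143, hsa-mir-145, hsa-mir-199a-1, hsa-mir-199a-2, hsa-mir-199b and hsa-mir-214) and all of their arms. Of the 661 hairpins in the deposited tables, 5 were members, and of the 783 mature names, 8 were arms of these hairpins. hsa-mir-214 and its arms had no row in either table, and no level was assigned to them. The libraries came from 3 replicate cultures of genotype WT, infected with an empty-vector (EV) lentiviral CRISPR-Cas9 construct and harvested 2 weeks later. They form 1 group of a single cell line, and no stromal cells or uninfected cells were compared here, so every comparison is between miRNAs, between arms or between replicates.

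A hairpin is the folded precursor from which Drosha and Dicer cut a 5p and a 3p strand, or arm, and one of them is usually kept in Argonaute, where bases 2 to 8 (the seed) pair with target mRNAs. miR-143 and miR-145 are known for smooth muscle cells, pericytes and fibroblasts, where they are made from a shared long transcript and favour the contractile state. miR-199a-2 and miR-214 are made from DNM3OS, a long transcript of developing mesenchyme, and the miR-199 family is also known from fibroblasts. These miRNAs are often read as marks of stroma in bulk tissue.

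The mature sequences are shown because they decide which reads can be told apart. They are RefSeq's, 5′ to 3′, with the seed in capitals, and 7 of the 8 listed arm names had one.
miR-143-3p: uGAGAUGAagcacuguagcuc
miR-143-5p: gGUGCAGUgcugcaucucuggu
miR-145-5p: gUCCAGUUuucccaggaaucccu
miR-145-3p: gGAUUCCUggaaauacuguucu
miR-199a-5p: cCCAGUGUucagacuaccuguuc
miR-199a-3p: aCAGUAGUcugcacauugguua
miR-199b-3p: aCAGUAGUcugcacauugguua
miR-214-3p: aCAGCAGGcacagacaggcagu

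miR-199a-3p and miR-199b-3p are the same sequence under 2 names, and it lies in 3 hairpins. Those hairpins are shown from the RefSeq GRCh38.p14 table, with the shared 3p sequence in capitals. MIR199A1 lies at chr19:10817426-10817496, MIR199A2 at chr1:172144535-172144644 and MIR199B at chr9:128244721-128244830, all on the minus strand.
MIR199A1: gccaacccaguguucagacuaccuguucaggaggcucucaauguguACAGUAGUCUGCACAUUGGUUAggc
MIR199A2: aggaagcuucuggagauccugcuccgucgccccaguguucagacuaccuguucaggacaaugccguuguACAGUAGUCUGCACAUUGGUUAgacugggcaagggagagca
MIR199B: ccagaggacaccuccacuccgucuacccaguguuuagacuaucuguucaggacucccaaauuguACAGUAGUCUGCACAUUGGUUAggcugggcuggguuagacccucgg

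On the 5p side the loci can be told apart in part. The 23 bases of miR-199a-5p lie unchanged in MIR199A1 and MIR199A2. Their best ungapped match in MIR199B, at bases 26 to 48 of that hairpin, differs at 2 positions, C10U and C17U, counted from 1 at the 5′ end of miR-199a-5p. Both positions lie past the seed. Outside the miR-199 names, no listed mature sequence came closer than 6 mismatches to a member arm among 678 compared over an ungapped overlap.

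In the GENCODE release 29 annotation of GRCh38, MIR143 at chr5:149428918-149429023 lies in an exon and MIR145 at chr5:149430646-149430733 in an intron of the long noncoding RNA CARMN, 1622 bases apart on the plus strand. MIR199A2 lies in an intron and MIR214, at chr1:172138798-172138907, in an exon of DNM3OS, which runs antisense to DNM3, with 5627 bases between them. MIR199A1 and MIR199B lie antisense within introns of DNM2 and DNM1, and no host gene was annotated on their own strand. The dynamin genes DNM1, DNM2 and DNM3 thus each hold a miR-199 hairpin on the opposite strand.

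Counts assigned to mature miRNAs were between 10991953 and 12694823 per library. Replicate 1 stood apart from the others. The median log2 ratio of FPKM over 781 mature miRNAs above 0 in all libraries was 0.48 for replicate 2 and 0.57 for replicate 3, each relative to replicate 1, and 0.09 for replicate 3 relative to replicate 2. FPKM here is the deposited value, reads scaled to feature length and library total, so arms and hairpins are compared per length.

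miR-199b-5p was the most abundant member. These are bulk values, in which fewer cells holding a miRNA and less of it per cell cannot be told apart. Its counts were 24150, 34061 and 40649 in replicates 1, 2 and 3, and its level was 86453, 140821 and 158127 FPKM. The mean of 128467 ± 37400 FPKM (SD, n = 3) ranked 45 of 783 mature names, above 94.3% of them. miR-199a-3p had 29144, 52672 and 67279 FPKM with its 2 rows summed, and ranked 81. miR-199b-3p had 14506, 26689 and 33446 FPKM and ranked 99. Both 3p names were lowest in replicate 1, as was miR-199b-5p.

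miR-143-3p, the arm credited with most of the function of miR-143, was the most abundant member of the CARMN pair. It had 4308, 2755 and 2670 counts in replicates 1, 2 and 3. Its level was 16964, 12529 and 11425 FPKM, a mean of 13640 ± 2932 (SD, n = 3), and it ranked 119. It was highest in replicate 1, where the miR-199 arms were lowest.

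miR-145-5p, the main arm of miR-145 in smooth muscle, was about an order of magnitude lower. Its 193, 280 and 364 counts gave 691, 1158 and 1416 FPKM, and it ranked 275. miR-145-3p had 104, 71 and 98 counts, or 390, 308 and 399 FPKM, and ranked 371. The highest value of miR-145-3p lay below the lowest of miR-145-5p.

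The remaining arms were low. miR-199a-5p had 68, 115 and 133 counts over its 2 rows, a mean of 412 ± 148 FPKM (SD, n = 3), and ranked 357. miR-143-5p had only 3, 15 and 16 counts, a mean of 47.1 ± 31.1 FPKM, and ranked 674. As a share of counts, miR-143-5p was at 0.236 CPM (counts scaled to the mature counts of the library) in replicate 1, with a Wilson 95% interval from 0.0804 to 0.695. Replicates 2 and 3 were at 1.36 (0.827 to 2.25) and 1.37 (0.843 to 2.22). The interval of replicate 1 did not overlap the others. Such intervals cover counting error only, since copies made by PCR are not told apart.

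In order of mean FPKM the arms ran from miR-199b-5p through miR-199a-3p, miR-199b-3p, miR-143-3p, miR-145-5p, miR-199a-5p and miR-145-3p to miR-143-5p. The gap between miR-199a-5p and miR-145-3p, 46.4 FPKM, was under the SD of miR-199a-5p, so this order was not resolved. All other neighbours in this order differed by more than the larger SD. miR-199b-3p exceeded miR-143-3p in only 2 of 3 libraries, while replicate 1 had the opposite order. The order of the 3p names of miR-199 is set by how many rows each name has, as the next values show.

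**Figure D1:**
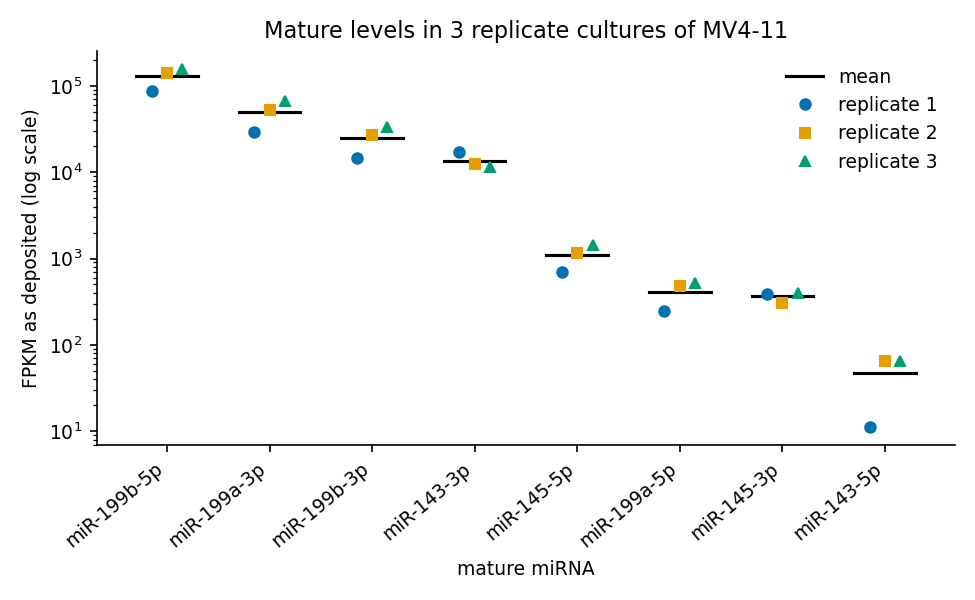
Deposited FPKM (log axis) of the 8 listed arms in each of 3 replicates (points), with the mean as a bar. miR-199b-5p lies highest at a mean of 128467 FPKM and miR-143-5p lowest at 47.1, and miR-143-3p is the only one of the 8 arms whose replicate 1 lies above both other replicates.

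The 3 hairpins that hold the miR-199-3p sequence received nearly the same number of 3p reads. In replicate 1 the rows had 3886 counts at mir-199a-1, 3885 at mir-199a-2 and 3868 at mir-199b. In replicate 2 they had 6046, 6115 and 6162, and in replicate 3 they had 8209, 8300 and 8207. Each row held between 33.0% and 33.6% of the summed 3p counts, and all 9 Wilson 95% intervals held the even share of 33.3%. The rows of miR-199a were tied to their hairpins because the counts of both arms added up exactly to the count of the hairpin in all 3 libraries.

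The 5p reads were not even. Of the summed 5p counts, mir-199b held 99.7% in each of the replicates 1, 2 and 3, with 24150 of 24218, 34061 of 34176 and 40649 of 40782. mir-199a-1 had 35, 56 and 68 counts and mir-199a-2 had 33, 59 and 65. In FPKM miR-199b-5p exceeded miR-199a-5p 355-fold, 296-fold and 306-fold in replicates 1, 2 and 3. The 3p reads cannot be told apart by locus, because the sequence is identical in all 3 hairpins. The 5p reads differ in sequence, and nearly all of them were assigned to mir-199b.

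This bears on the hairpin levels. mir-199b had a mean of 30642 ± 9353 FPKM, mir-199a-1 had 7467 ± 2870 and mir-199a-2 had 4837 ± 1880 (SD, n = 3). In both hairpins of miR-199a, 99.0% to 99.2% of the counts were 3p reads of the shared sequence, against 13.8% to 16.8% in mir-199b. The levels of mir-199a-1 and mir-199a-2 in the deposited table are thus levels of a sequence that all 3 loci share. They differ from each other in FPKM although their counts, 3921 and 3918 in replicate 1, were nearly the same, because mir-199a-1 is the shorter hairpin, with 70 bases against 109 in the FPKM.

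**Figure D2:**
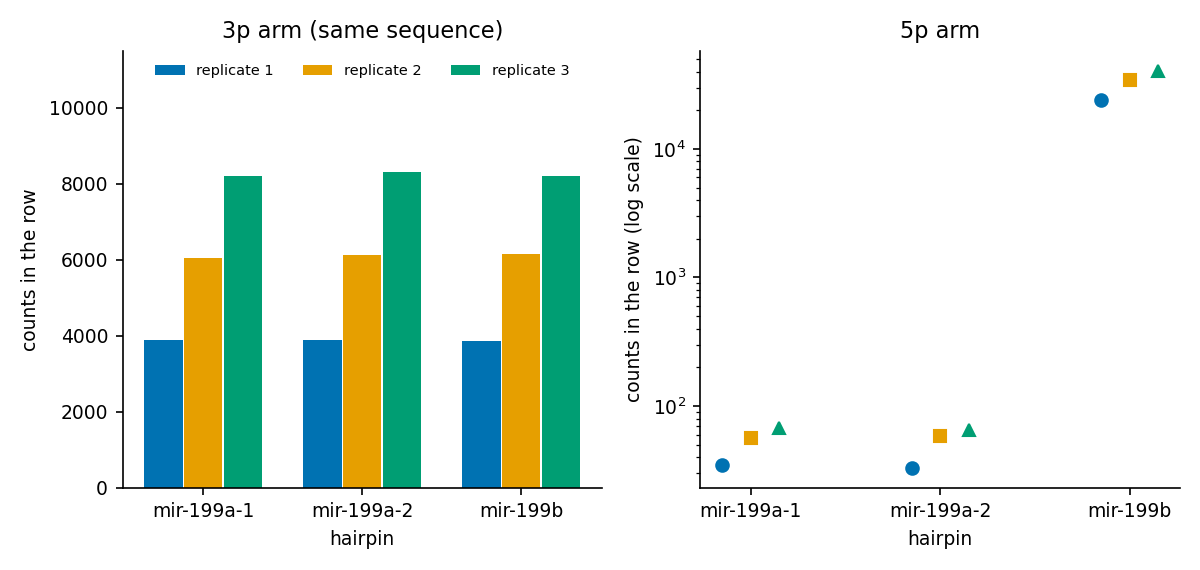
Counts of the 3p row (left, linear axis from 0) and the 5p row (right, log axis) of the 3 miR-199 hairpins in each replicate. The 3p bars are level across hairpins within a replicate, from 3868 to 3886 in replicate 1, while the 5p points of mir-199b, 24150 to 40649 counts, lie far above the 33 to 68 counts of the miR-199a hairpins.

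The ratio of mir-199a-2 to mir-214 on their shared transcript was not analysed here, because mir-214 had no row. The seed of miR-214-3p was carried in the RefSeq table by 3 human miRNAs, miR-214-3p, miR-761 and miR-3619-5p, of which only miR-3619-5p was listed. It had 3, 6 and 20 counts. miR-143-3p shares its seed with miR-4770 and miR-6088 and miR-199a-3p with miR-3129-5p, and none of these had a row. Summed by seed, the miR-199-3p sequence made up 917, 1667 and 2116 CPM of mature counts in replicates 1, 2 and 3 and ranked 39 of the 580 seeds of the 679 names with a sequence. miR-199b-5p is not in this ranking, although it alone made up 1902, 3099 and 3480 CPM. The seed of miR-143-3p made up 339, 251 and 229 CPM and ranked 83, and that of miR-145-5p made up 15.2, 25.5 and 31.2 CPM and ranked 185. Among the names with a sequence, all of the counts under these 3 seeds came from the members themselves.

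mir-143 and mir-145 lie on a shared transcript but differed in level. mir-143 had 3226, 2393 and 2183 FPKM and mir-145 had 268, 366 and 453 FPKM in replicates 1, 2 and 3. mir-143 was the higher in every library and the groups did not overlap. The ratio of mir-143 to mir-145 was 12.0 in replicate 1, 6.54 in replicate 2 and 4.82 in replicate 3. In a quasi-likelihood fit to counts with the library as a block (edgeR), the log2 ratio was 2.85 ± 0.31 (SE, n = 3), with a Benjamini-Hochberg adjusted p of 0.00075 over 70 pairs of neighbouring hairpins within 10 kb on a strand. Without replicate 1 the log2 ratio was 2.48.

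Such differences between neighbours were common. Of the 70 pairs, 53 (75.7%) passed an adjusted p under 0.05 with an absolute log2 ratio of at least 1, and the median absolute log2 ratio was 2.15. The pair of mir-143 and mir-145 exceeded 64.3% of the pairs. Its call is therefore like that of most neighbouring hairpins in these libraries.

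**Figure D3:**
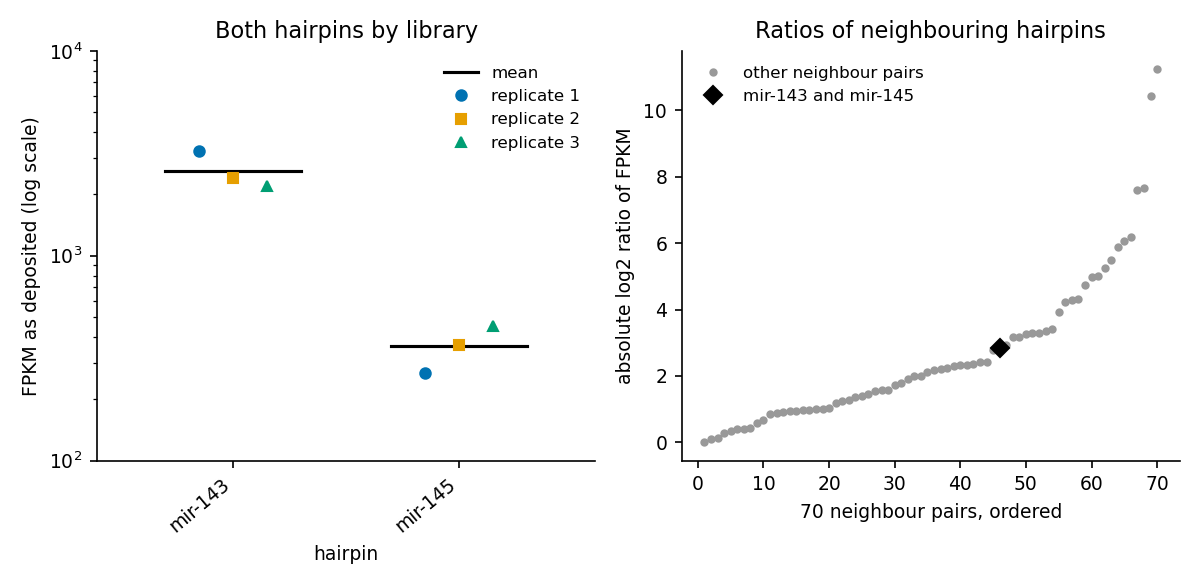
Left, FPKM (log axis) of mir-143 and mir-145 in each replicate (points) with the mean as a bar. Right, the absolute log2 ratio of 70 neighbouring hairpin pairs in increasing order, where mir-143 and mir-145 (diamond, 2.85) lie above the median of 2.15.

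The change between libraries differed among the arms. Relative to replicate 1, the log2 ratio of miR-143-3p was -0.44 in replicate 2 and -0.57 in replicate 3, where the median of all mature miRNAs was 0.48 and 0.57. Only 14.1% and 10.9% of the 781 miRNAs had lower ratios. The log2 ratio of miR-145-5p was 0.74 and 1.04, that of miR-199b-5p was 0.70 and 0.87, and that of miR-199b-3p was 0.88 and 1.21, all above the median. The minor arms of the CARMN pair lay on the other side of the median from their partners. The log2 ratio of miR-145-3p was -0.34 and 0.03, below it, and that of miR-143-5p, on few counts, was 2.53 in both, above it. Between replicates 2 and 3 the log2 ratio of miR-143-3p was -0.13. The coefficient of variation of miR-143-3p was 21.5% on the deposited scale, against a median of 29.6% in the 50 mature names nearest in level. After scaling by median-of-ratios size factors it was 44.5%, and after TMM scaling it was 47.2%, while that of miR-199b-5p fell from 29.1% to 10.8% and 8.33%. That of miR-145-3p went from 13.8% to 29.5% and 31.8%. miR-143-3p and miR-145-3p thus spread more between libraries once the shift of replicate 1 was scaled out, whereas miR-199b-5p spread less. What set replicate 1 apart was not tested.

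Arms were compared within libraries to learn which strand of each hairpin was the more abundant. All 4 member names with both arms listed passed the thresholds, where 159 of 196 names did (81.1%), so a share of calls this high is near the background. miR-143 was one-sided toward 3p, miR-145 and miR-199b leaned toward 5p, and miR-199a was counted toward 3p.

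In FPKM miR-143-3p exceeded miR-143-5p 1508-fold in replicate 1, with an exact 95% counting interval from 516 to 7314. The excess was 193-fold (117 to 345) in replicate 2 and 175-fold (108 to 307) in replicate 3. The interval of replicate 1 did not overlap the others and rests on 3 counts of miR-143-5p. The log2 ratio of 5p to 3p was -8.24 ± 0.71 (edgeR SE, adjusted p = 0.000143, toward 3p in 3 of 3 libraries). It was -7.51 without replicate 1. Its size exceeded that of 94.4% of the 196 names.

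miR-145-5p exceeded miR-145-3p 1.77-fold, 3.76-fold and 3.55-fold in replicates 1, 2 and 3. The log2 ratio was 1.52 ± 0.35 (edgeR SE, adjusted p = 0.00877, toward 5p in 3 of 3 libraries), smaller than the median absolute log2 ratio of 3.16 over all names. The call was lost without replicate 2, with a log2 ratio of 1.33 and an edgeR adjusted p of 0.107, against 3.74e-12 to 0.0402 without replicate 1 or replicate 3.

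For miR-199 the arm ratio depended on how the shared 3p rows were treated. By name, miR-199b-5p exceeded miR-199b-3p 5.96-fold, 5.28-fold and 4.73-fold, a log2 ratio of 2.41 ± 0.20 (edgeR SE, adjusted p = 0.000133, toward 5p in 3 of 3 libraries). By name, miR-199a leaned the other way, with a log2 ratio of -6.90 ± 0.25 (edgeR SE, adjusted p = 1.04e-05, toward 3p in 3 of 3 libraries). When the 3 rows of the shared 3p sequence were summed and set against the sum of miR-199a-5p and miR-199b-5p, which was decided on once the data had been seen, 5p exceeded 3p 1.99-fold, 1.78-fold and 1.58-fold. The log2 ratio was then 0.83 ± 0.19 (edgeR SE, adjusted p = 0.00916, toward 5p in 3 of 3 libraries), below the minimum of 1 for a call. With a replicate left out, its edgeR adjusted p ran from 9.1e-07 to 0.114. The sum does not rest on which locus a 3p read was given to, whereas both ratios by name do.

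**Figure D4:**
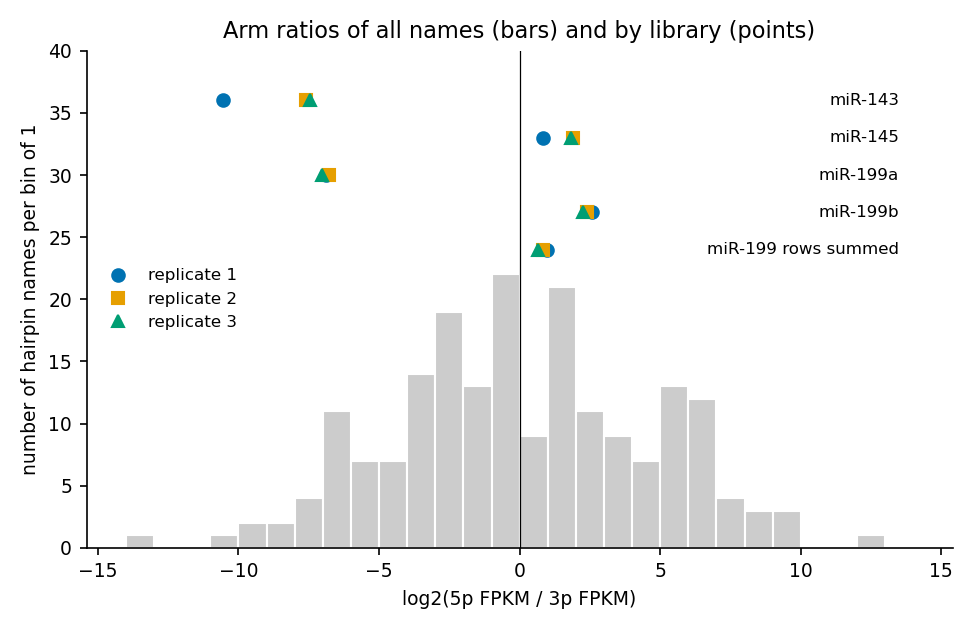
Distribution of the log2 ratio of 5p to 3p FPKM over 196 hairpin names (bars), with the ratio in each replicate (points) for 4 member names and for the miR-199 rows summed. miR-143 lies far toward 3p at -8.24, and the summed miR-199 rows lie close to balance at 0.83 where miR-199a and miR-199b by name lie at -6.90 and 2.41.

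Nearly all reads of the member hairpins fell within the annotated arms. None of the counts of mir-143, mir-145, mir-199a-1 or mir-199a-2 lay outside an arm in the 3 libraries, and mir-199b had 2, 1 and 1 counts outside its arms. For mir-199a-1 and mir-199a-2 this follows from the rule that tied their rows to them, which required the arms to add up to the hairpin. Over 526 hairpins that could be compared in this way the median share outside the listed arms was 0.953%. Of these, 266 (50.6%) were at or under 1%, so low shares were common. Another 10 hairpins were left out because their arms had more counts than the hairpin in some library.

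The members were set beside markers of blood and of other tissues. Among blood hairpins, 9 of 9 had a row, with mir-155 at 378768 ± 42956 FPKM, mir-142 at 199399 ± 94700 and mir-223, a myeloid miRNA, at 65575 ± 26087 (SD, n = 3). The lowest of them was mir-150 at 14.1 ± 7.48 FPKM. mir-199b, with 30642 ± 9353 FPKM, lay within the SD of mir-181a-1 of the blood list, which had 30350 ± 3869. With all shared miR-199 3p reads placed at mir-199b, a placement tried after the data had been seen, mir-199b had 40191 FPKM, outside that SD. mir-181a-1 has another copy on the blood list, and its level was not recomputed for shared reads. Of the 15 other stromal and mesenchymal hairpins, 11 had a row, from mir-125b-2 at 7.81 ± 2.91 FPKM to mir-140, a cartilage miRNA, at 69719 ± 10525. Of 9 muscle hairpins 5 had a row, from mir-133a-1 at 49.5 ± 21.4 FPKM to mir-1-1 at 522 ± 26.0 (SD, n = 3). The endothelial mir-126 had 35656 ± 7945 FPKM.

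The median of the mean levels was 4837 FPKM for the 5 listed members and 68.3 for all 661 hairpins. Over hairpins with a row it was 25334 for the blood list, 263 for the other stromal list and 109 for the muscle list. Those were 9 of 9, 11 of 15 and 5 of 9 hairpins. Every row had at least 10 counts in some library, so the stromal and muscle medians may be too high for the whole lists. The value of the members is that of mir-199a-2 and rests on how the shared 3p reads were placed. It was 2601 FPKM without the miR-199a hairpins. With all shared 3p reads placed at mir-199b it was 362 FPKM, and mir-199a-1 and mir-199a-2 were then at 64.9 and 41.3 FPKM. Both of these placements were tried after the data had been seen. The medians of the other lists were not recomputed for shared reads. The ranks of the members were 51 for mir-199b, 98 for mir-199a-1, 109 for mir-199a-2, 132 for mir-143 and 224 for mir-145. The ranks of mir-199a-1, mir-199a-2 and mir-199b have the same limit. No stromal sample was measured beside this line.

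**Figure D5:**
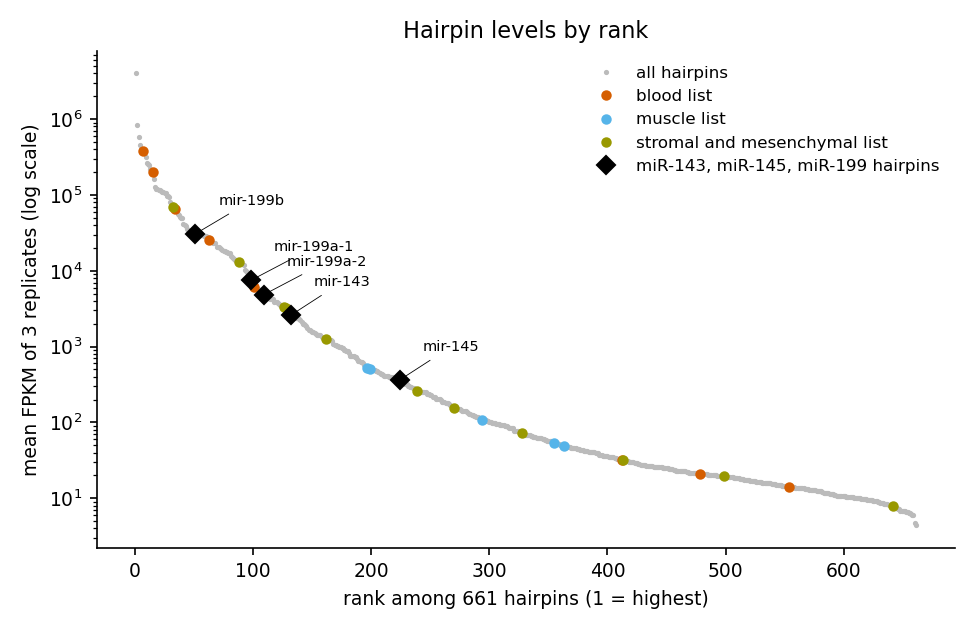
Mean FPKM of 3 replicates (log axis) against rank for 661 hairpins (grey), with the 5 listed members (diamonds) and the blood, muscle and other stromal lists. mir-199b, at rank 51, lies among blood hairpins, and mir-145, at rank 224, lies below mir-1-1 and mir-1-2 of the muscle list.

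The hairpins most like each member were named by the root mean square difference of log2(FPKM + 1) over the 3 libraries, a description over few points. For mir-199b they were mir-30c-2 (0.06), mir-185 (0.08) and let-7d (0.16). For mir-143 the nearest, mir-192, differed by 0.18, followed by mir-6842 (0.20) and mir-378c (0.20). For mir-145 they were both copies of mir-550a, at 0.03 and 0.06, and mir-320b-2 (0.09). For mir-199a-1 they were mir-33a (0.22), mir-146a (0.30) and mir-92b (0.32). For mir-199a-2 they were mir-652 (0.11), mir-34a (0.21) and mir-124-3 (0.26).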

How the data were processed

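Total RNA was isolated on miRNeasy columns, made into small RNA libraries with a New England Biolabs kit and sequenced on an Illumina HiSeq. Adapter ligation depends on sequence, so levels are not molar. The authors counted reads over miRBase release 21. The submitters' processing notes name Novoalign 2.08.03 and the builds hg19 and mm10, with no role given. How a read that matches several hairpins was placed is not given in the sources used here. The deposited counts are whole reads per mature miRNA and per hairpin, and every row had at least 10 in some library. The deposited FPKM were made by the authors from these counts, with lengths 1 base under those in RefSeq for all 7 arms compared. Counts per library were 12694823, 10991953 and 11682129.

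Rows of one name (55 names) were summed. Ratios of arms and of neighbouring hairpins were fitted across all pairs with edgeR 4.0.16 (quasi-likelihood test, library as a block, offsets for length and library total), and calls needed a Benjamini-Hochberg adjusted p under 0.05 and an absolute log2 ratio of at least 1. SE is the log2 ratio divided by the square root of F. DESeq2 1.42.0 and limma 3.58.1 were alternatives, run in R 4.3.3. Other values used Python 3.11.15, numpy 2.4.6, scipy 1.17.1, pandas 2.3.3 and matplotlib 3.10.9. The fits were tested on simulated pairs, whose set ratios were smaller than that of the arms of miR-143, and the outcome is not given here. The chi-square statistic per degree of freedom was at least 324 between libraries, so none was a copy. p-values measure the spread between replicate cultures.

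Neighbours were found with RefSeq GRCh38.p14 positions for 523 of 661 hairpins, and sequences matched 679 of 783 names. No position was converted between builds. Named were all listed members, their seed sharers, the 3 nearest hairpins of each, and the ends of the lists with mir-142, mir-155 and mir-223. mir-181a-1, mir-1-2, mir-99a and mir-100 were named after their values were seen. The members and lists were chosen with earlier results of these data known.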

Additional observations from a re-analysis of the deposited data

How the results depend on the processing

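Under the alternatives, 142 recomputed values were counted as kept, among them all 65 mean levels, and 5 were not. For a ratio, kept means the same direction and side of the threshold. For a level, a median or a share outside the arms it means a move within the SD. For a number of pairs called the limit was looser. With at least 10 counts of both arms in every library, 123 of 148 arm pairs against 159 of 196 counted as kept. Leaving out a replicate cannot move a mean of 3 by the SD of the 3. Those levels and shares were therefore bound to be kept. Summing the shared miR-199 rows, chosen after the data were seen, turned the log2 arm ratio of miR-199a from -6.90 to 0.83 and ended the call of miR-199b, from 2.41 to the same 0.83. This follows from construction, since the sum does not divide the 3p reads among loci. The median level of the listed hairpins, 4837 FPKM, was 2601 without the miR-199a hairpins and 362 with the shared 3p reads all at mir-199b, both also chosen after the data were seen. Without each replicate in turn the summed ratio ran from 0.74 to 0.91 and was never called. The arm ratio of miR-145 ran from 1.33 to 1.87 with a replicate left out and was not called without replicate 2 (1.33). The cause was not tested. Without a replicate in turn the ratio of miR-143 ran from -8.75 to -7.51, that of miR-199a by name from -6.96 to -6.84, that of miR-199b by name from 2.32 to 2.49, and that of mir-143 to mir-145 from 2.48 to 3.15. Fits to 2 libraries rest on a spread shared across pairs, so their p-values are less sure. miR-143 has no value with at least 10 counts of both arms in every library, and miR-199a has none among names with a single row. Arm pairs called ran from 141 to 166 and neighbour pairs from 52 to 55 with a replicate left out. Alternatives for the ratio of mir-199a-2 to mir-214 were not run, as mir-214 had no row. Depth limits miR-143-5p most, with 3 counts in replicate 1.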

Other observations

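mir-143 was not alone in being highest in replicate 1. On the deposited scale, 136 of 659 hairpins above 0 in all libraries (20.6%) were lower in both replicates 2 and 3 than in replicate 1. mir-143 was the only one of the 5 listed members among them. From the other lists they were mir-100 and mir-99a of 11 stromal hairpins (18.2%), mir-1-1 and mir-1-2 of 5 muscle hairpins (40%), and none of 9 blood hairpins. mir-1-1 and mir-1-2 are copies named for the same miRNA, so the share of the muscle list rests on that miRNA alone. The share of the members, 20%, and that of the stromal list were near the 20.6% of all hairpins. All other hairpins of the stromal list were not lower in both replicates 2 and 3. Counts of mir-100, which is also known from mesenchymal cells, were 320, 204 and 220 in replicates 1, 2 and 3, and those of mir-99a were 30, 17 and 9. Counts of mir-1-2, a muscle miRNA, were 606, 437 and 460. These hairpins were picked out after their values were seen, and what they share was not tested.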
